A study of Mus musculus with 18 samples.

Results

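The 8 genes described here are the keratins used most often to tell the layers of the mammary epithelium apart: Krt5, Krt14, Krt15 and Krt17 for the basal layer, and Krt7, Krt8, Krt18 and Krt19 for the luminal layer. They were found by gene symbol in the annotation of the array's probe sets, where 13 probe sets carry 1 of these symbols, among 45037 probe sets and 18193 named genes in all. Krt14 and Krt8 have 3 probe sets each, Krt17 has 2 and the others 1. A further probe set that is annotated to both Krt17 and Krt14 was not used. The series comprises 18 mouse arrays of the one-colour Affymetrix kind. Cells of 3 mammary tumors, numbered 1, 2 and 7, were separated into 4 populations by surface CD29, an integrin chain, and CD24: high for both (CD29H CD24H), CD29 high and CD24 low (CD29H CD24L), CD29 low and CD24 high (CD29L CD24H), and low for both (CD29L CD24L). Each tumor gave 1 array per population, 12 in all. Of normal mammary epithelium there are 5 arrays: 2 of a gate high for CD29 and positive for CD24 (CD29H CD24P), 2 of a gate positive for CD29 and high for CD24 (CD29P CD24H), and 1 gated as CD24 low. The last array held a commercial reference RNA. Tumors 1 and 2 are labelled as transplantation generation 1 and tumor 7 carries no such label. The labels give no genotype, strain or age for tumors or normal cells; the study is known for tumors that arose from transplanted p53-null mammary tissue, and for CD29H CD24H cells as its tumor-initiating population.

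Keratins form the intermediate filaments of epithelial cells. A filament is built from pairs of 1 acidic type I chain (Krt14, Krt15, Krt17, Krt18 and Krt19 here) and 1 basic type II chain (Krt5, Krt7 and Krt8 here), so the genes are used in sets. In the mammary duct the outer basal or myoepithelial layer uses mainly the Krt5 and Krt14 pair, and the inner luminal layer mainly the Krt8 and Krt18 pair.

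The type II genes lie in a cluster on mouse chromosome 15, and the type I genes other than Krt18 in a cluster on chromosome 11. In the order of protein-coding genes Krt8 and Krt18, the luminal pair, are direct neighbours, while Krt15, used as a basal keratin, is the direct neighbour of Krt19, a luminal one. RefSeq promoter sequences (build GRCm38.p6, 250 bases before to 50 after the annotated start) were matched for 5 of the 8 genes: Krt5, Krt14, Krt7, Krt8 and Krt18. The promoters of the basal and luminal pairs are shown because the results below turn on whether the members of a pair keep the same pattern. Krt5 lies at chr15:101712856-101713155 and Krt14 at chr11:100205981-100206280, both on the minus strand. Krt8 lies at chr15:102004293-102004592 on the minus strand and Krt18 at chr15:102027966-102028265 on the plus strand. Capitals mark matches to TATAAA or ATAAAA on either strand, which overlap in Krt8.
Krt5: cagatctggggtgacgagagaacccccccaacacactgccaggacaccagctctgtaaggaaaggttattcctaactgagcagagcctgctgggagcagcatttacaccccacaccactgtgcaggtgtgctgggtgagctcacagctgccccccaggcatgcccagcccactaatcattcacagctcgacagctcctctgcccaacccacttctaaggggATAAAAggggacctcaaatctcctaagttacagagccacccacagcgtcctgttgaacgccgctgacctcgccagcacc
Krt14: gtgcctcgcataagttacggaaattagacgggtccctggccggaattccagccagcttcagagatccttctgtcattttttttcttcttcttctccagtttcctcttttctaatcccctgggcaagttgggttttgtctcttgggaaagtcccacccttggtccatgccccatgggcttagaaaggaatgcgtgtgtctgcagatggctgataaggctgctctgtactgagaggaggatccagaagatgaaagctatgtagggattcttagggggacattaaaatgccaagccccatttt
Krt8: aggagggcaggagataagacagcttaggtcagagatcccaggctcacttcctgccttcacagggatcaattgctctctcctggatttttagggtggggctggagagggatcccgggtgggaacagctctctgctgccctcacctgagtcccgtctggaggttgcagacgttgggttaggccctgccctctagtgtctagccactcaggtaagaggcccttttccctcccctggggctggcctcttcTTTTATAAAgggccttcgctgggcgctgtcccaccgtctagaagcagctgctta
Krt18: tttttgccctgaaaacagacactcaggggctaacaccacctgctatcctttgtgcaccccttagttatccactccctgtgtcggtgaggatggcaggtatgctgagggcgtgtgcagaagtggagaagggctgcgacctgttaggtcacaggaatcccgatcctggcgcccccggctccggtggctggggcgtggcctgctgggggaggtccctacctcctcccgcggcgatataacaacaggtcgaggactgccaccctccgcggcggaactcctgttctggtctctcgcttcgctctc
The Krt5 window holds ATAAAA at -29 from the start, the Krt8 window holds both motifs, and the Krt14 and Krt18 windows hold neither. The Krt7 window, not printed, holds ATAAAA and 4 matches to GGGCGG, a motif found in none of the other 4 windows. TGANTCA was in none of the 5. Over all 32851 promoters of the same length in the table, TATAAA was present in 13.616%, ATAAAA in 18.474%, GGGCGG in 35.658% and TGANTCA in 7.808%.

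All 18 arrays had the same trimmed mean of 500 signal units, and their medians lay between 71.6 and 104 units. Precision is limited by how few arrays there are. Detection calls were not used here, so a signal below the array median is not told apart from an absent transcript. The ratio of the actin 3' to 5' probe sets, a measure of how complete the amplified RNA is, was 14.4 to 99.3 on tumor arrays and 3.08 to 24.7 on normal arrays. It moves with the comparison of tumor and normal cells, and its part in the results was not tested. The normal CD24 low array goes against its epithelial label: Epcam, an epithelial adhesion protein, stood at 100.2 units there, and the summed signal of 10 fibroblast markers at 283372 units. Its keratins are given below as values only and enter no difference. The array had a group mean of its own in the normal fit, where it counted for the filter and the choice of probe sets. It was also among the 17 sorted-cell arrays of the correlations and of an alternative fit.

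In normal mammary cells the basal and luminal keratins separated the sorted populations, each in the direction its name gives. With CD29H CD24P set against CD29P CD24H cells, all 4 basal keratins were higher and all 4 luminal keratins lower. Krt5, the type II basal keratin, had 13691 and 13888 signal units in CD29H CD24P cells and 54.9 and 73.7 in CD29P CD24H cells. Krt14, its type I partner, had 17951 and 18829 units in CD29H CD24P cells and 236 and 135 in CD29P CD24H cells. Krt15, a type I keratin of basal cells in stratified epithelia, had 9241 and 10471 units in CD29H CD24P cells and 14.6 and 96.6 in CD29P CD24H cells. Krt5 and Krt15 were thus near or below the array medians in CD29P CD24H cells, and Krt14 above them. Krt17, a type I keratin of skin appendages and wounded epithelium, had 5714 and 10419 units in CD29H CD24P cells and 131 and 187 in CD29P CD24H cells, so its dimmer population was still above the medians.

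The luminal keratins were present in both normal populations, and all 4 were above the array medians in each. Krt8, the type II luminal keratin, had 20852 and 18828 units in CD29H CD24P cells and 44892 and 45862 in CD29P CD24H cells. Krt18, its type I partner, had 4660.2 and 5432 units in CD29H CD24P cells and 28822 and 34228 in CD29P CD24H cells. Krt19, a type I keratin without the usual tail domain, had 2427 and 2313 units in CD29H CD24P cells and 28501 and 34294 in CD29P CD24H cells. The populations did not overlap for any of these 3 genes, which is a description, since how many of all genes do the same was not counted. Krt7, a type II keratin of ducts and glands, had 328 and 294 units in CD29H CD24P cells and 6726 and 8555 in CD29P CD24H cells. The normal CD24 low array had 827 units of Krt8, 319 of Krt18 and 33.7 of Krt14, in each case less than the other 4 normal arrays.

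Tested with limma over 10916 genes on the log2(signal + 32) scale, a scale that understates the change of dim genes, all 8 keratins passed a Benjamini-Hochberg adjusted p of 0.05 in normal cells. Over all genes, 14.3% passed as higher and 14.6% as lower in CD29H CD24P cells, and the median difference of all genes was -0.016. The difference (CD29H CD24P minus CD29P CD24H, with the standard error from limma and 2 arrays each) was 7.17 ± 0.25 for Krt5, 6.99 ± 0.42 for Krt15, 6.44 ± 0.29 for Krt14 and 5.36 ± 0.33 for Krt17, with limma adjusted p of 4.37e-06 or smaller. It was -4.47 ± 0.26 for Krt7 and -3.70 ± 0.22 for Krt19, and was closer to 0 for the luminal pair: -2.63 ± 0.22 for Krt18 (limma adjusted p = 2.34e-05) and -1.19 ± 0.18 for Krt8 (limma adjusted p = 0.000964). All 8 passed under each alternative that kept both arrays of each population compared. With 1 of those arrays left out its group held 1 array, and the calls there are not read as a result about the keratins. In sorted populations measured in bulk, fewer cells of a type and less RNA per cell cannot be told apart, here and in each result that follows. That the normal arrays came from separate animals is not stated, so these p-values measure the spread between the arrays, which may be technical.

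**Figure D1:**
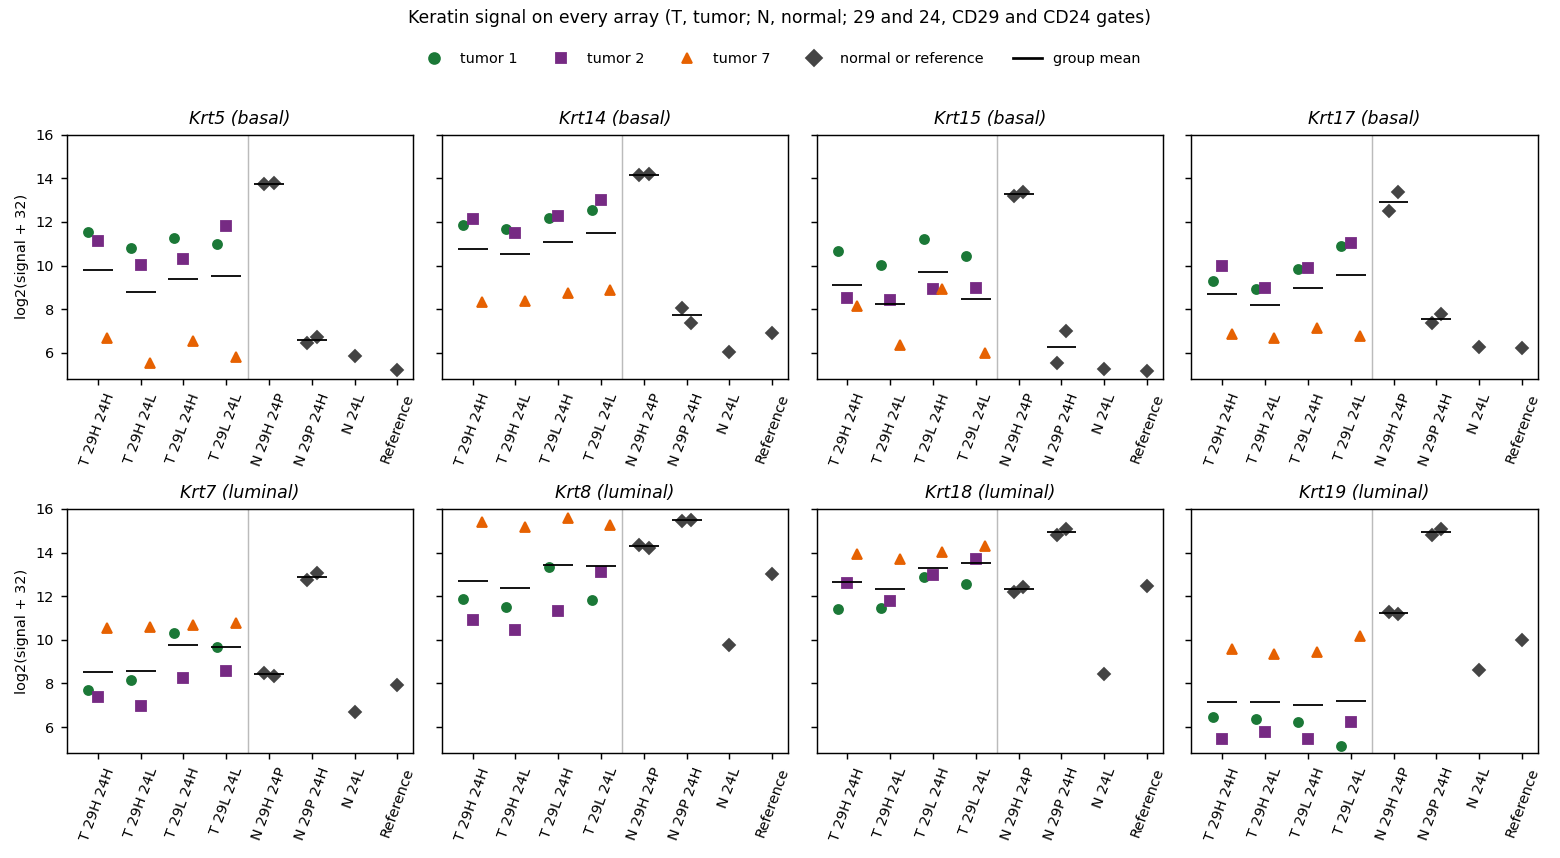
Signal of the 8 keratins on all 18 arrays, as log2(signal + 32), with 1 panel per gene and 1 point per array; bars are group means, and the symbols mark tumors 1, 2 and 7. Krt5 and Krt14 separate the 2 main normal populations, while in the tumors the 4 populations of tumor 7 do not overlap those of tumors 1 and 2 for any keratin except Krt15.

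In the tumors the keratins followed the tumor more than the sorted population. Tumors 1 and 2 carried the basal pair in all 4 of their populations, and tumor 7 had little of it in any. Values of a tumor are given for its CD29H CD24H, CD29H CD24L, CD29L CD24H and CD29L CD24L cells in that order. In tumor 7 Krt5 had 69.9, 14.5, 62.3 and 24.1 units, all below the array medians. Tumor 1 had 2938, 1777, 2434 and 1982 units of Krt5, and tumor 2 had 2234, 1001, 1227 and 3556. Krt14 gave 293, 302, 389.6 and 446 units in tumor 7. It gave 3640.3, 3255, 4630.4 and 5941 units in tumor 1 and 4513, 2845, 4938 and 8204 in tumor 2. For both genes the 4 arrays of tumor 7 lay below all 8 arrays of the other tumors, and the tumor mean differed from that of tumors 1 and 2 by -4.84 for Krt5 and -3.56 for Krt14 on the log2(signal + 32) scale.

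Krt17 followed the same order, and Krt15 only in part. Krt17 had 82.6, 70.8, 111 and 78.4 units in tumor 7. Its signal was 590.2, 448, 880.3 and 1868 units in tumor 1 and 980.0, 468, 906 and 2052 in tumor 2, again without overlap with tumor 7. In both of these tumors the CD29L CD24L cells had the highest Krt17, and in tumor 1 that array also had the highest summed signal of skin epidermis markers, described below. Krt15 had 251, 48.7, 458 and 31.8 units in tumor 7. The CD24 high populations lay above the CD24 low ones in tumor 7 and in tumor 1, but not in tumor 2. Tumor 1 had 1612, 1010.3, 2359 and 1362 units of Krt15 and tumor 2 334, 309, 447 and 473, so tumor 2 overlapped tumor 7 and both lay below tumor 1.

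The luminal keratins were highest in tumor 7. Krt8 had 43146, 36269, 48254 and 39058 units in tumor 7, a range that includes the 2 normal CD29P CD24H arrays. It had 3665, 2881, 10455 and 3623 units in tumor 1 and 1862, 1387, 2509 and 8759 in tumor 2, all 8 below the normal CD29H CD24P arrays, the dimmer of the 2 normal epithelial populations. Krt18 had 15365, 13344, 16360.4 and 20141 units in tumor 7. Its signal was 2678, 2789.5, 7469 and 5959.8 units in tumor 1 and 6191, 3443, 8043 and 13259.8 in tumor 2. For Krt18 the lowest array of tumor 7 was only just above the highest of tumor 2. Unlike Krt8, Krt18 in tumors 1 and 2 spanned the level of normal CD29H CD24P cells, so the members of the luminal pair did not stand in the same relation to normal cells.

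Krt19 and Krt7 were also highest in tumor 7. Krt19 had 730.3, 618, 652 and 1134 units in tumor 7. In tumor 1 it had 56.4, 50.6, 43 and 3.62 units and in tumor 2 11.7, 23, 11.4 and 43.3, all 8 below the array medians, where no order can be read among them. All 12 tumor arrays were below both normal epithelial populations for Krt19. Krt7 had 1462, 1528, 1614 and 1735 units in tumor 7. It had 174, 254, 1251 and 778 units in tumor 1 and 132, 91.3, 268 and 346 in tumor 2. In each tumor, tumor 7 included, the CD29 low populations had the most Krt7.

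Counted over the members, the 4 arrays of tumor 7 did not overlap the 8 arrays of tumors 1 and 2 for 7 of the 8 keratins, 3 lower (Krt5, Krt14 and Krt17) and 4 higher (Krt7, Krt8, Krt18 and Krt19). Among all 10916 genes 9.1% did not overlap in this way, 4.38% with tumor 7 lower and 4.72% with tumor 7 higher. Of the sum of squares among the 12 tumor arrays, the tumor of origin took 95.1% for Krt5, 95.0% for Krt19, 94.9% for Krt14, 84.8% for Krt8, 84.1% for Krt17, 75.2% for Krt15, 72.6% for Krt7 and 66.2% for Krt18. The median over all genes was 38.5%. The sorted population took between 0.122% (Krt19) and 24.9% (Krt18), where the median of all genes was 23.3%. There are 3 tumors and the 4 arrays of a tumor share their source, so the difference between tumors is a description and was not tested. The commercial reference RNA had 8197 units of Krt8, 5638 of Krt18, 986 of Krt19, 209 of Krt7, 89.3 of Krt14 and 5.58 of Krt5.

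**Figure D2:**
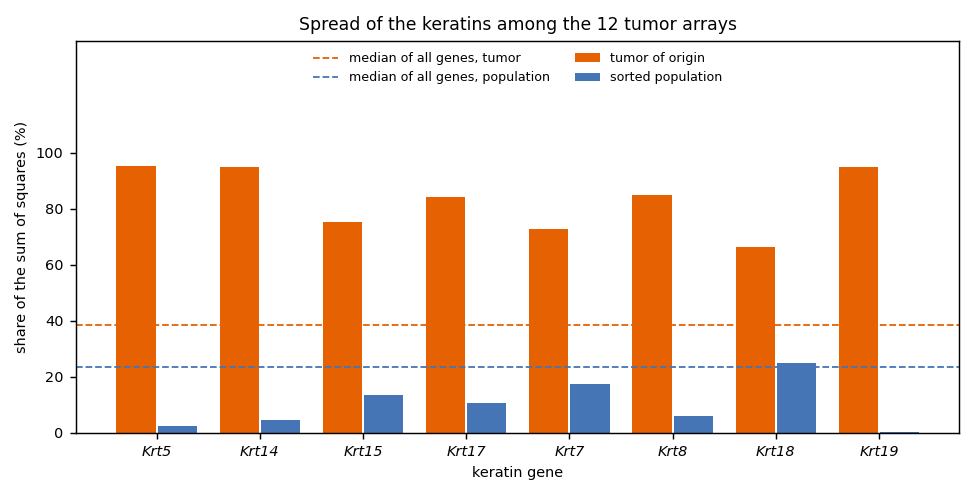
Share of the sum of squares of log2(signal + 32) among the 12 tumor arrays taken by the tumor of origin (3 tumors) and by the sorted population (4 populations), as bars for each keratin; dashed lines are the medians of all genes. The bar for tumor of origin is above the dashed line of 38.5% for all 8 keratins, from 66.2% (Krt18) to 95.1% (Krt5).

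The study's question concerned genes that set tumor-initiating cells apart, so the keratins were compared between the gates. No keratin passed in any of 4 tumor comparisons with limma: CD29H CD24H against the mean of the other 3 populations, CD29H CD24H against CD29L CD24H, CD29 high against low, and CD24 high against low. At an unadjusted p under 0.05 there were also 0 of 8 in each, where 6.95%, 2.63%, 6.46% and 7.79% of all genes had one. Over all genes 0%, 0%, 0% and 0.733% passed the adjusted threshold in these comparisons. Keratin differences for CD29H CD24H minus the other 3 populations ran between -0.80 and 0.55 (log2, n = 3 per population), with a median of 0.054 for the 4 basal and -0.37 for the 4 luminal genes beside 0.0031 for all genes. The widest was Krt7, -0.80 ± 0.85 with a limma adjusted p of 0.946. Against CD29L CD24H alone Krt7 was at -1.22 ± 1.04 (limma adjusted p = 1).

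Arrays with the same number come from the same tumor, and with the tumor as a block the standard errors of these differences became smaller. The count of keratins called stayed at 0 of 8 in the 4 comparisons, against 0.779%, 0.00916%, 0.879% and 3.85% of all genes. The smallest p-values were in the CD29 comparison, where 5 of 8 keratins had an unadjusted p under 0.05 with the block, as did 15.8% of all genes. Krt18 stood at -0.92 ± 0.50 in CD29 high minus CD29 low populations without the block (limma adjusted p = 0.847) and at the same difference with an error of 0.22 and an adjusted p of 0.0589 with it. Krt7 stood at -1.16 ± 0.74 (limma adjusted p = 0.908), or ± 0.29 and 0.0713 with the block, and Krt14 at -0.62 ± 0.97 (limma adjusted p = 0.998), or ± 0.19 and 0.12. For each of these 3 genes, and for Krt8 too, the difference was below 0 in all 3 tumors, within CD24 high and within CD24 low cells alike. The p-values with the block rest on these same differences, so the signs are a description. How many of all genes share them was not counted. Krt18 differed by -1.47, -0.38 and -0.090 between the CD29 gates of CD24 high cells in tumors 1, 2 and 7, and by -1.09, -1.94 and -0.59 in CD24 low cells. In the CD24 comparison Krt15 stood at 1.04 ± 0.83 (limma adjusted p = 0.916), or ± 0.32 and 0.0989 with the block, and its difference within CD29 low cells was 2.94 in tumor 7 against 0.78 in tumor 1 and -0.077 in tumor 2.

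Marker genes of other cell types had unequal signals in these populations, and whether cells of those types or tumor cells made the RNA was not tested. The summed signal of the 10 fibroblast markers was 166106 to 196247 units in CD29H CD24L cells, against 18199 to 43936 in CD29H CD24H, 10407 to 80470 in CD29L CD24H and 34954 to 72718 in CD29L CD24L cells. The 10 leukocyte markers summed to 6511 to 19913 units in CD29H CD24H, 10214 to 34073 in CD29H CD24L, 7319.6 to 46242 in CD29L CD24H and 20255 to 38916 in CD29L CD24L cells, so these ranges overlap apart from those of the first and last. Krt5, Krt17 and Krt8 were lowest in the CD29H CD24L cells in each of the 3 tumors. Krt14, Krt15, Krt7, Krt18 and Krt19 were not. In tumor 1 Krt18 had 2678 units in CD29H CD24H and 2789.5 in CD29H CD24L cells. In tumor 7 Krt15 had 31.8 units in CD29L CD24L and 48.7 in CD29H CD24L cells. How many of all genes share the pattern was not counted. The part of other cell types in the keratin signals was not tested.

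All 8 keratins passed between the normal gates and none between the tumor gates most like them, so the difference between these differences was tested itself. It was taken as CD29H CD24H minus CD29L CD24H in tumors, minus CD29H CD24P minus CD29P CD24H in normal cells, on 10 arrays. The gates are not the same: the normal pair differs in both CD29 and CD24, and the tumor pair in CD29 only. The part of this unlikeness in the results was not tested. Without a block 1 of 8 keratins passed, Krt15, at -7.57 ± 1.22 (limma adjusted p = 0.0136), where 1.46% of all genes passed as lower and 0.834% as higher. Its gate difference was -0.54, -0.39 and -0.79 in tumors 1, 2 and 7, against 7.64 and 6.35 in the normal preparations. The other basal keratins had values of like size with wider errors: -6.76 ± 2.11 for Krt5 (limma adjusted p = 0.155), -6.73 ± 1.71 for Krt14 (0.0804) and -5.61 ± 1.37 for Krt17 (0.0677). For Krt5 the gate difference was 0.27, 0.85 and 0.11 in the 3 tumors, against 7.30 and 7.04 in the preparations. Among luminal keratins the value was 3.84 ± 1.74 for Krt19, 3.26 ± 1.31 for Krt7, 1.99 ± 0.86 for Krt18 and 0.50 ± 1.82 for Krt8, with limma adjusted p between 0.299 and 0.958.

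With tumor or preparation as a block, 7 of 8 passed, the 4 basal keratins as lower and Krt7, Krt18 and Krt19 as higher, where 7.7% and 6.15% of all genes passed. The limma adjusted p was then 4.91e-07 for Krt5, Krt14 and Krt15, 1.42e-06 for Krt17, 1.91e-05 for Krt19, 0.00173 for Krt7, 0.00436 for Krt18 and 0.477 for Krt8. Since the numbers of the normal preparations do not show pairing, a block of the tumors alone was added after seeing the data, and 7 of 8 passed there too, where 15.2% of all genes passed. Without the block, leaving out the CD29L CD24H array of tumor 7 gave 4 called. Leaving out a normal array leaves 1 in its group, and the loss of calls there is not read as a result about the keratins. Calls over all genes also moved widely with the array left out, as given in the closing section, so the count of 4 is not read by itself. Krt8 changed sign with 1 of 2 tumor arrays left out, at -0.85 when tumor 7 lacked its CD29H CD24H array and -0.55 when tumor 2 lacked its CD29L CD24H array. Without all arrays of tumor 7, 5 of 8 passed, where 3.99% of all genes did.

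**Figure D3:**
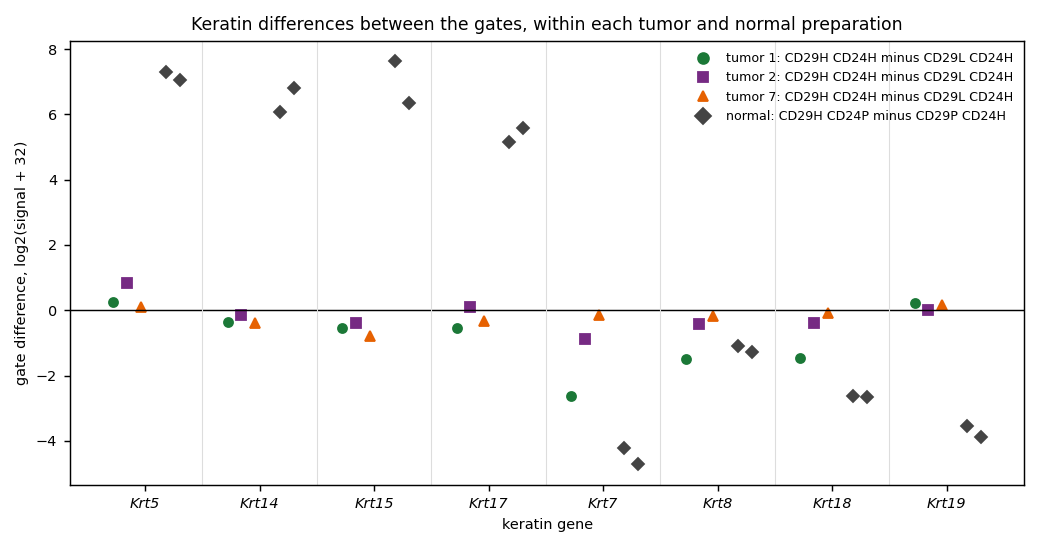
Difference between the gates for each keratin on the log2(signal + 32) scale, with 1 point per tumor (CD29H CD24H minus CD29L CD24H, coloured symbols, left) and 1 per number of the normal preparations (CD29H CD24P minus CD29P CD24H, dark diamonds, right), whose arrays do not show pairing. The normal gates differ in both CD29 and CD24, the tumor gates in CD29 only. Tumor points of the 4 basal keratins lie between -0.79 and 0.85, and the normal points between 5.14 and 7.64.

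Tumor CD29H CD24H cells were then set against normal CD29H CD24P cells, 3 arrays against 2. In this comparison 2 of 8 keratins passed, both basal and both lower in the tumor cells, where 2.87% of all genes passed as lower and 2.42% as higher. They were Krt17, at -4.22 ± 0.90 (limma adjusted p = 0.0456), and Krt15, at -4.15 ± 0.75 (limma adjusted p = 0.0287). Krt19 was at -4.07 ± 1.09 (limma adjusted p = 0.0807), Krt5 at -3.97 ± 1.35 (0.133) and Krt14 at -3.39 ± 1.07 (0.114), and these did not pass. For all 5 genes each tumor array was below both normal arrays. With 3 arrays against 2 this is a description, and how many of all genes separate in this way was not counted. Krt8 was at -1.56 ± 1.18 (limma adjusted p = 0.446), Krt18 at 0.33 ± 0.68 (0.795) and Krt7 at 0.11 ± 0.91 (0.949), with tumor 7 above and at least 1 other tumor below the normal arrays.

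That count changed when tumor 7 was left out. Without its array, 6 of 8 keratins passed as lower, where 6.71% of all genes did: Krt5 at -2.41, Krt14 at -2.17, Krt15, Krt17, Krt8 at -2.91 and Krt19 at -5.27. Krt7 and Krt18 then turned to -0.90 and -0.30 and did not pass. With the array of tumor 1 or of tumor 2 left out 1 keratin passed. With a normal array left out its group held 1 array, and the loss of calls there is not read as a result about the keratins. The number of all genes called also moved widely with the array left out, as given in the closing section. The keratin counts with the array of tumor 1 or of tumor 2 left out are thus not read by themselves. Krt17 was just past the threshold, and it missed with an offset of 1 (limma adjusted p = 0.0607), with quantile normalization (0.0501), with no filter (0.0652) and with the mean of its probe sets (0.0695).

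Tumor CD29L CD24H cells were set against normal CD29P CD24H cells in the same way. The difference was negative for all 4 luminal and positive for all 4 basal keratins, and 3 of 8 passed, where 2.75% of all genes passed in each direction. Krt19 was lower by the widest margin, at -7.90 ± 1.02 (limma adjusted p = 0.00726), and Krt7 was at -3.15 ± 0.70 (0.0408). Krt19 had 43 and 11.4 units in these cells of tumors 1 and 2, below the array medians, so the size of its difference is rough. Krt15 was higher, at 3.41 ± 0.77 (limma adjusted p = 0.0439). Krt18 was at -1.66 ± 0.40 (limma adjusted p = 0.0535), Krt8 at -2.06 ± 0.99 (0.255), Krt14 at 3.34 ± 0.99 (0.0918), Krt5 at 2.79 ± 1.18 (0.2) and Krt17 at 1.39 ± 0.80 (0.325), and none of these passed. Krt14 was above the normal arrays in every tumor, at 4630.4, 4938 and 389.6 units in tumors 1, 2 and 7 against 236 and 135 in the normal preparations. Krt5 was above them in tumors 1 and 2 and within their range in tumor 7.

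Without the tumor 7 array all 8 keratins passed, 4 higher and 4 lower, where 5.67% and 4.78% of all genes did. Krt7 and Krt15 missed with no filter (limma adjusted p = 0.0702 and 0.084) and with all 17 sorted-cell arrays in 1 fit (0.082 and 0.0988). Without the tumor 1 array 1 passed. Without a normal array its group held 1 array, and the loss of calls there is not read as a result about the keratins. Here too the number of all genes called moved widely with the array left out, so the count without the tumor 1 array is not read by itself. Krt19 passed in every alternative that kept both normal arrays, and its limma adjusted p ran between 0.000248 and 0.141 over the arrays left out. In both comparisons of tumor and normal cells the summed leukocyte markers were higher in tumor cells, at 6511 to 19913 units in CD29H CD24H against 1979 to 2800 in normal CD29H CD24P cells, and 7319.6 to 46242 in CD29L CD24H against 4297 to 6522 in normal CD29P CD24H cells. The fibroblast markers summed to 18199 to 43936 units in tumor CD29H CD24H against 24545 to 25103 in normal CD29H CD24P cells, and to 10407 to 80470 in tumor CD29L CD24H against 9833 to 13145 in normal CD29P CD24H cells. Their part was not tested.

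**Figure D4:**
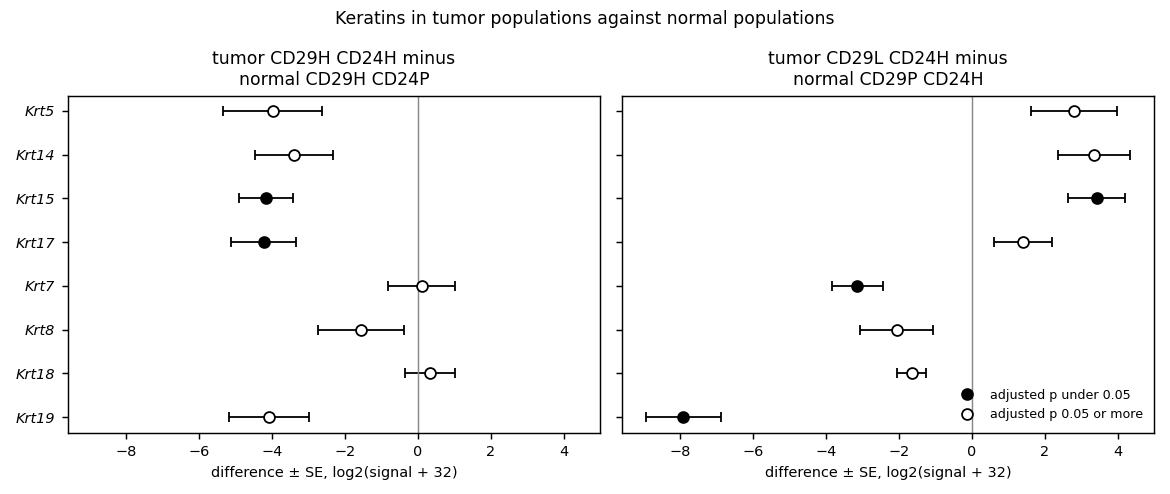
Difference between tumor and normal cells of similar, not identical, gates for the 8 keratins, as log2(signal + 32) with bars of 1 standard error from limma (3 tumor and 2 normal arrays in each panel). Filled points passed an adjusted p of 0.05: Krt15 and Krt17 in the left panel, and Krt15, Krt7 and Krt19 in the right panel.

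Genes that work beside the keratins were taken from lists of known genes. Of 12 basal mammary genes, 9 were bright enough to be tested on the tumor arrays alone as well as in normal cells. In normal cells all 9 were higher in the CD29H CD24P gate, where 14.3% of all genes were. They included the contractile gene Mylk (6.71) and the transcription factor Snai2 (7.35). The other 3, among them the contractile genes Cnn1 (7.69) and Myh11 (7.47), entered only through the CD29H CD24P cells, where they are high. They had to be higher there and are not counted. In tumor CD29H CD24H against normal CD29H CD24P cells 3 of the 9 passed as lower and 0 as higher, where 2.87% and 2.42% of all genes did, among them the contractile genes Tagln (-6.51) and Mylk (-5.16). Oxtr, the oxytocin receptor (-6.34), and Myh11 (-6.39) also passed as lower, but they and Cnn1 entered the test only through the normal cells, where they are high, so they had to differ and are not counted. Trp63, a transcription factor of basal cells, had 189 to 451 units in tumor 7, against 2746 to 7526 in tumor 1 and 1329.8 to 3517 in tumor 2, so it was lowest in tumor 7, as was Krt14. In tumor CD29L CD24H against normal CD29P CD24H cells 0 of 9 basal genes passed, where 2.75% of all genes did in each direction.

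The luminal genes changed in both directions between tumor and normal cells. Of 13 bright enough on the tumor arrays as well, 12 were lower in the normal CD29H CD24P gate, where 14.6% of all genes were. The exception was Gata3, a luminal transcription factor, with 1457 and 1520.2 units in CD29H CD24P and 1152 and 1667 in CD29P CD24H cells. Cited1 was lower too, but it entered the normal test only through the CD29P CD24H cells and is not counted. Of 13 tested, 6 were higher and 1 lower in tumor CD29H CD24H than in normal CD29H CD24P cells, where 2.42% and 2.87% of all genes were, with a median of 1.78. Of the luminal keratins none passed as higher there. Foxa1 was at 3.74, Prom1 at 3.62 and Gata3, which did not separate the normal gates, at -3.74. Ehf, an epithelial transcription factor, was at 6.66 ± 0.35 (limma adjusted p = 0.00166). However, Ehf had 9.81 and 3.36 units in normal CD29H CD24P cells, below the array medians. It entered this test only through the tumor cells, so it had to be higher. Kit (38.3 and 66.7 units) and Elf5 (69.9 and 81.2) were also dim in those normal cells. The count of 6 is therefore not read as a result about the luminal genes. In tumor CD29L CD24H against normal CD29P CD24H cells 1 of the same 13 was higher and 4 lower, where 2.75% of all genes were in each direction; the lower ones included Esr1, the estrogen receptor (-5.79), Gata3 (-3.33) and Foxa1 (-2.11). Cited1 (-5.11) entered only through the normal cells, where it is high, and is not counted. In the 4 comparisons between tumor gates no basal or luminal gene passed without the block, where at most 0.733% of all genes did. With the block 1 of 13 luminal genes was higher in CD29 high and 1 in CD24 high populations. Of all genes 0.879% and 3.85% passed there in either direction.

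Desmosomes and hemidesmosomes anchor keratin filaments to the cell surface, and 17 genes of these junctions were measured. In normal cells 7 were higher and 5 lower in the CD29H CD24P gate, where 14.3% and 14.6% of all genes were: Col17a1 (7.03), Lama3 (4.90) and Lamb3 (4.13), of the hemidesmosome and its matrix, were higher, and Pkp2, a desmosomal plaque protein, was lower (-5.32). In tumor CD29H CD24H against normal CD29H CD24P cells 3 passed, all lower, where 2.87% of all genes were: Lama3 (-3.77), Lamb3 (-2.84) and Dst, which links keratins to hemidesmosomes. Dst has 4 probe sets that disagree in size. The one of highest mean in this fit was at -3.89, while the one used in the other fits was at -2.23, with tumor 7 (2636 units) at the level of the normal arrays (2990 and 2448). In tumor CD29L CD24H against normal CD29P CD24H cells 1 passed, Pkp2 (-2.38), where 2.75% of all genes were lower.

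The genes whose signal followed Krt14 and Krt8 most closely were picked by Pearson correlation over the 17 arrays of sorted cells, given as a description, since the arrays share tumors. For Krt14 they were Col17a1 (r = 0.937), Jag2 (0.934), Trp63 (0.929), St8sia6 (0.929) and Eva1a (0.921), of which Col17a1, Jag2 and Trp63 are on the lists above. For Krt8 they were Lcn2 (r = 0.95), Acadl (0.929), Map3k9 (0.928), Syne4 (0.921) and Csn3 (0.908). Csn3, the milk protein kappa casein, had 33914 to 48452 units in tumor 7, against 105 to 208 in tumor 1 and 25.5 to 170.1 in tumor 2. It had 6739 to 7179 units in normal CD29H CD24P and 36223 to 37806 in normal CD29P CD24H cells.

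The array names 40 other keratin genes, of which 12 to 14 were bright enough to be tested, depending on the comparison. Of 10 bright enough on both the tumor and the normal arrays, 3 were higher and 2 lower in the normal CD29H CD24P gate (14.3% and 14.6% of all genes). Krt23 (3.38), Krt6a (-2.93) and Krt42 (2.24) led them. Krt4 (-4.67) was lower too, but it entered only through the CD29P CD24H cells and is not counted. Krt6a, a keratin of skin appendages and wounded skin, had 1929.7 and 2006 units in CD29H CD24P cells and 14071 and 16398 in CD29P CD24H cells. In tumor CD29H CD24H against normal CD29H CD24P cells none of 13 passed, where 2.42% of all genes were higher and 2.87% lower. In tumor CD29L CD24H against normal CD29P CD24H cells Krt23 was higher (2.99) and Krt4 lower (-4.54), where 2.75% of all genes were in each direction. Of 14 tested for the difference between tumor and normal gates, Krt4 was higher (4.69) and Krt23 lower (-4.24), beside 0.834% and 1.46% of all genes. With the block 2 were higher and 3 lower, beside 6.15% and 7.7%. Krt4 was too dim to be tested on the tumor arrays alone and entered these comparisons only through the normal CD29P CD24H cells.

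Several of the other keratins were also uneven between tumors. Krt6b had 110.4 to 182 units in tumor 7, against 6939.7 to 38435 in tumor 1 and 32.5 to 271 in tumor 2, and 7.51 to 57.1 in the 4 main normal arrays. Krt79 had 271 to 518 units in tumor 7, against 3272 to 25821 in tumor 1 and 3941 to 5862 in tumor 2, and 97.8 to 347 in those normal arrays. Both were therefore high in tumor 1, and Krt79 but not Krt6b in tumor 2. Krt6a and Krt6b are close copies, so their probe sets may share signal. Krt10, a keratin of the upper epidermis, had 20234.5 units in the CD29L CD24L cells of tumor 1 and 266 to 927 in its other 3 populations. On that array the 5 markers of skin epidermis summed to 29340 units, against 1804 to 2849 on the other arrays of tumor 1, and whether skin cells contributed was not tested. On that array Krt5 lay within the range of the other arrays of tumor 1, while Krt14 and Krt17 were the highest of the 4, Krt17 with 1868 units against 448 to 880.3. Other keratins were also highest there: Krt73 had 8326 units, Krt25 3894 and Krt27 2038.

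**Figure D5:**
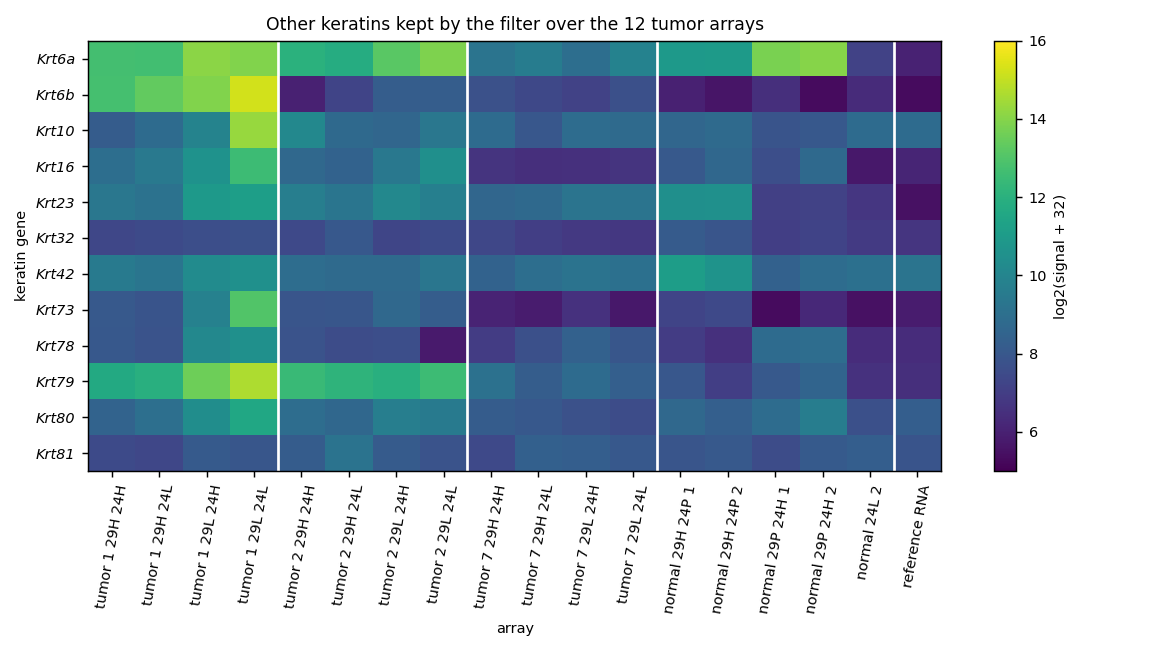
Signal of the 12 other keratins kept by the filter over the 12 tumor arrays, as log2(signal + 32) in colour, with 1 row per gene and 1 column per array; white lines separate tumors 1, 2 and 7, the normal arrays and the reference RNA. Krt6b is bright in tumor 1 only, Krt79 in tumors 1 and 2, and Krt10 on 1 array of tumor 1.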

How the data were processed

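Per the labels' protocols, total RNA of sorted cells was isolated with a PicoPure kit and amplified by a 2-cycle T7 procedure. The deposited intensity values, 1 per probe set on a linear scale, were produced by the authors with GCOS, per the submitters' processing notes (no version named). Per the series' design text a reference RNA served for normalization, yet the values are not ratios to it. The intensity of every array had a trimmed mean of 500. Of 45101 probe sets 64 are controls; 34945 have 1 symbol, 932 several and 9160 none. A gene with several probe sets was read from the one of highest mean signal in the fitted arrays, so 8 genes of the lists but no keratin changed probe set between fits. Values were taken as log2(value + 32), with no further normalization, and genes in the lowest 40% by mean were dropped, a filter that all 8 keratins passed in all 8 comparisons. Groups came from the sample titles. Models were fitted in R 4.3.3 by limma 3.58.1, using lmFit, contrasts.fit and trended eBayes, and Benjamini-Hochberg adjustment over 10916 genes, at a threshold of 0.05. The tumor comparisons used the 12 tumor arrays, the normal one the 5 normal arrays, and those of tumor with normal cells only the arrays of their groups. The procedure was tested on simulated data.

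A shared tumor number means a shared tumor. Deviations of such arrays correlated between 0.389 and 0.728 in 18 pairs, and between -0.458 and -0.0526 in 36 pairs of different tumors. For the normal preparations the correlation was 0.0552, which does not show pairing. No 2 arrays were duplicates, with a highest Pearson correlation of 0.9805. The members and gene lists were chosen with earlier results of these data known. All 8 keratins are named; of each list, at most the 4 members with the smallest p per comparison are named, and the levels of Epcam, Trp63, Cnn1, Krt6b, Krt79, Krt10, Krt73, Krt25 and Krt27 were added after their values were seen. Alternatives were a lower and a higher offset, quantile normalization, no filter, the mean of the probe sets, no intensity trend, single probe sets, all 17 sorted-cell arrays in 1 fit, the replicate block and leaving out each array. Leaving out tumor 7 and a block of the tumors alone were added after seeing the data. Python 3.11.15 and matplotlib 3.10.9 drew the figures.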

Additional observations from a re-analysis of the deposited data

Results flagged for a closer look

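Krt15 was singled out because its gate difference itself differed between tumors and normal cells: the tumor difference (CD29H CD24H minus CD29L CD24H) minus the normal difference (CD29H CD24P minus CD29P CD24H) was -7.57 ± 1.22 (limma adjusted p = 0.0136, 10 arrays). The difference was below 0 in all 3 tumors and above 6 in both normal preparations. Krt15 passed with each of the other settings that kept all 10 arrays, and its value ran between -8.35 and -6.80 over the arrays left out. The pattern was not particular to Krt15: the value was -6.76 for Krt5, -6.73 for Krt14 and -5.61 for Krt17, with wider errors. With the replicate block 7 of 8 keratins passed, where 7.7% of all genes passed as lower and 6.15% as higher.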

How the results depend on the processing

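All 8 keratins passed in normal cells under every alternative that kept both arrays of each population compared. In the 4 comparisons between tumor gates 0 of 8 passed under every alternative tried, the replicate block included. In tumor CD29H CD24H against normal CD29H CD24P cells the count of 2 became 1 with an offset of 1, quantile normalization, no filter or the mean of the probe sets, 6 without tumor 7, and 0 to 6 with 1 array left out; Krt7 and Krt18 reversed to -0.898 and -0.302 without tumor 7, and over the arrays left out ran between -0.898 and 0.694 and between -0.302 and 0.951. In tumor CD29L CD24H against normal CD29P CD24H cells the count of 3 became 1 with no filter, the mean of the probe sets or 17 arrays in 1 fit, 8 without tumor 7, and 0 to 8 with 1 array left out. For the difference between tumor and normal gates the count of 1 became 2 with the higher offset, 7 with the replicate block, 7 with a block of the tumors alone, 5 without tumor 7 and 0 to 4 with 1 array left out, where Krt8 ran between -0.845 and 1.57. The cause of these changes was not tested, beyond the smaller number of arrays where arrays were left out. Of the other probe sets of Krt14, Krt8 and Krt17, 1 lost its call, that of Krt17 in CD29H CD24H against normal CD29H CD24P cells (-1.06, limma adjusted p = 0.196).

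Counts over all genes moved too, so the keratin counts with an array left out are not read by themselves. The CD24 comparison called 80 genes, and 41 with an offset of 1, 131 with the higher offset, 50 with quantile normalization, 45 with no filter and 420 with the replicate block. With the block the other tumor comparisons called 85, 1 and 96 genes, against 0 without it, and the difference between tumor and normal gates called 1512 (1656 with the tumors alone as blocks) against 250. Tumor CD29H CD24H against normal CD29H CD24P called 577, and 384 with no filter, 1047 with 17 arrays and 3 to 1474 with 1 array left out. Tumor CD29L CD24H against normal CD29P CD24H called 600, and 318, 957 and 0 to 1141 in the same settings. With 1 array left out the difference between tumor and normal gates called 8 to 307, the CD24 comparison 0 to 182 and the normal one 1913 to 4903. Signals near or below the array medians, such as Krt19 in tumors 1 and 2, which was below them, give only a rough level.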
